A study of Mus musculus with 6 samples.

Results

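The 10 genes described here build the osteocyte network or sense force through it: Pdpn, Cd44, Gja1, Fbln7, Irx5, Ptprz1, Tmem119, Piezo1, Pkd1 and Trpv4. They were chosen by gene symbol, are 10 of the 55421 genes in the deposited count table, and all 10 were among the 18838 genes that passed the filter on low counts. Transcripts were measured in 6 libraries of femur bone fractions enriched for osteocytes, from C57BL/6 mice labelled WT and aged 12 weeks: 3 libraries labelled control and 3 labelled phlebotomy, which is removal of blood. The labels give neither the amount and timing of the bleeding nor the sex of the mice, and they do not say whether each library is a separate animal. Libraries carry the number of their deposited column (1, 2 and 4 in each group, against 1 to 3 in the sample titles), and control is the set of columns whose initial is not that of phlebotomy, so every comparison rests on that reading.

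Osteocytes lie in small cavities of mineralised matrix and touch each other, the bone surface and vessels through long dendrites that run in canaliculi. Loading of bone moves fluid through the canaliculi, and channels, polycystins, integrins and connexins at the membrane are known to turn that movement into calcium entry and signals to neighbouring cells. The series compares osteocyte transcripts after hemorrhage with those of controls, and here the question is where the dendrite, junction and channel genes stood.

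None of the 10 genes passed the test over all genes, and each had a lower fitted level after phlebotomy. The log2 fold changes of phlebotomy over control ran from -1.24 for Fbln7 to -0.15 for Tmem119, with a median of -0.62, against a median of -0.0028 over all genes tested. In edgeR's quasi-likelihood test with Benjamini-Hochberg adjustment over all 18838 genes, 0 of the 10 were called lower at an adjusted p under 0.05, against 0% of all genes, and 0 were called higher, against 0.0159%. Taking an unadjusted p under 0.05, 6 of the 10 were lower (Fbln7, Piezo1, Pkd1, Irx5, Ptprz1 and Pdpn), against 9.42% of all genes, and 0 were higher, against 7.01%. The groups lay apart, with every phlebotomy library below every control, for Fbln7, Irx5, Piezo1, Pkd1 and Trpv4, which is 5 of 10 against 11.2% of all genes. In the other direction 0 of 10 lay apart, against 10.1%. All 10 had a fold change below 0, as did 50.2% of all genes.

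With other filters on low counts, some of the 10 were called. DESeq2, fitted on 46479 genes with its own filtering, so that tool and filter changed together, called 4 of the 10 lower (Fbln7, Irx5, Piezo1 and Pkd1, with adjusted p of 0.00115, 0.0425, 0.00720 and 0.0194), against 2.20% of the genes to which it gave an adjusted p. With no low-count filter edgeR called Fbln7, Ptprz1, Piezo1 and Pkd1, 4 of 10 against 0.884% of all genes, and over the authors' filtered genes it called Fbln7, 1 of 10 against 0.0491%.

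Library depth was 11219243 to 19015588 gene counts, and 3 counts correspond to 0.164 to 0.296 CPM (counts scaled to library size, here with the TMM method). Phlebotomy 2 stood apart from the other phlebotomy libraries: on the first principal component, which held 41.8% of the variance, it lay at -7.80, nearer to the controls (-51.4 to -16.6) than to phlebotomy 1 and 4 (54.9 and 40.2). Erfe, the erythroferrone gene of the series title, stood at 0.0546 to 0.592 CPM in controls and rose to 4.19 to 4.69 CPM, phlebotomy 2 included (edgeR adjusted p 0.00641). The osteocyte label was checked on 5 markers outside the 10 genes, and all were present in every library. Dmp1 and Mepe, matrix proteins of osteocytes, ranged over 11445 to 43051 and 1524 to 3972 CPM, Phex over 211 to 721, Sost over 183 to 491 and Fgf23 over 6.41 to 9.27.

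Pdpn, Cd44 and Gja1 serve the dendrite and its contacts. In what follows, levels are listed for libraries 1, 2 and 4 of a group, in that order. Pdpn encodes podoplanin (E11), a membrane glycoprotein of early osteocytes that dendrite growth needs. Control levels were 311, 247 and 148 CPM, and phlebotomy levels 118, 197 and 158 CPM. Controls 1 and 2 were high, control 4 lay inside the phlebotomy range, and the groups overlapped. The means were 235 ± 82.0 and 158 ± 39.5 CPM (SD, n = 3), and the log2 fold change was -0.57 ± 0.25 (SE; 95% interval -1.12 to -0.03; edgeR adjusted p 0.282). The gene lies on chromosome 4 from 143267431 to 143299564 (GRCm38, protein-coding, 6 exons in its longest transcript).

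Cd44 encodes a hyaluronan receptor that is found on osteocyte processes and on most blood cells. Controls held 2773, 2016 and 1476 CPM and phlebotomy libraries 1153, 1602 and 1813 CPM. Control 4 was below 2 of the 3 phlebotomy libraries, so the groups overlapped. The log2 fold change was -0.46 ± 0.25 (SE; 95% interval -0.99 to 0.08; edgeR adjusted p 0.380).

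Gja1 encodes connexin 43, the main gap junction and hemichannel protein of osteoblasts and osteocytes. It reached 4143, 3252 and 2483 CPM in controls, against 1569, 2841 and 2721 CPM after phlebotomy. Only phlebotomy 1 lay below all controls, and the groups overlapped. The log2 fold change was -0.47 ± 0.26 (SE; 95% interval -1.04 to 0.09; edgeR adjusted p 0.387).

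Fbln7, Irx5 and Ptprz1 mark osteocytes among bone cells. Fbln7 encodes fibulin-7, a secreted glycoprotein of matrix and cell adhesion, and had the lowest fold change of the 10. Control levels were 65.6, 56.0 and 59.6 CPM, phlebotomy levels 14.8, 33.1 and 28.7 CPM. The controls lay close together, and each phlebotomy library lay below all of them. The means were 60.4 ± 4.86 and 25.5 ± 9.55 CPM (SD, n = 3), a log2 fold change of -1.24 ± 0.24 (SE; 95% interval -1.76 to -0.72). Its unadjusted p of 0.000151 ranked 17 among all genes, with an edgeR adjusted p of 0.139. The gene lies on chromosome 2 from 128862981 to 128897034 (GRCm38, protein-coding, 9 exons in its longest transcript).

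Irx5 encodes an Iroquois homeobox transcription factor. Controls held 52.8, 45.1 and 44.3 CPM and phlebotomy libraries 27.6, 36.6 and 25.7 CPM. The groups did not overlap, and phlebotomy 2 was the nearest to the controls. The log2 fold change was -0.66 ± 0.19 (SE; 95% interval -1.06 to -0.26; edgeR unadjusted p 0.00302, adjusted p 0.169). Ptprz1 encodes a receptor-type tyrosine phosphatase whose outer part binds pleiotrophin and midkine. Its controls held 161, 114 and 95.6 CPM and its phlebotomy libraries 55.4, 74.1 and 102 CPM. Here phlebotomy 4 lay above control 4, so the groups overlapped, and the log2 fold change was -0.68 ± 0.23 (SE; 95% interval -1.18 to -0.18; edgeR adjusted p 0.211).

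Tmem119 encodes a membrane protein that promotes osteoblast differentiation and is otherwise known as a microglia marker. Controls stood at 33.5, 24.5 and 26.3 CPM and phlebotomy libraries at 18.4, 36.4 and 21.0 CPM. Phlebotomy 2 held the highest level of all 6 libraries, while phlebotomy 1 and 4 lay below all controls. The log2 fold change was -0.15 ± 0.24 (SE; 95% interval -0.67 to 0.37; edgeR adjusted p 0.779), and it was 0.058 without phlebotomy 1 and -0.55 without phlebotomy 2.

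**Figure D1:**
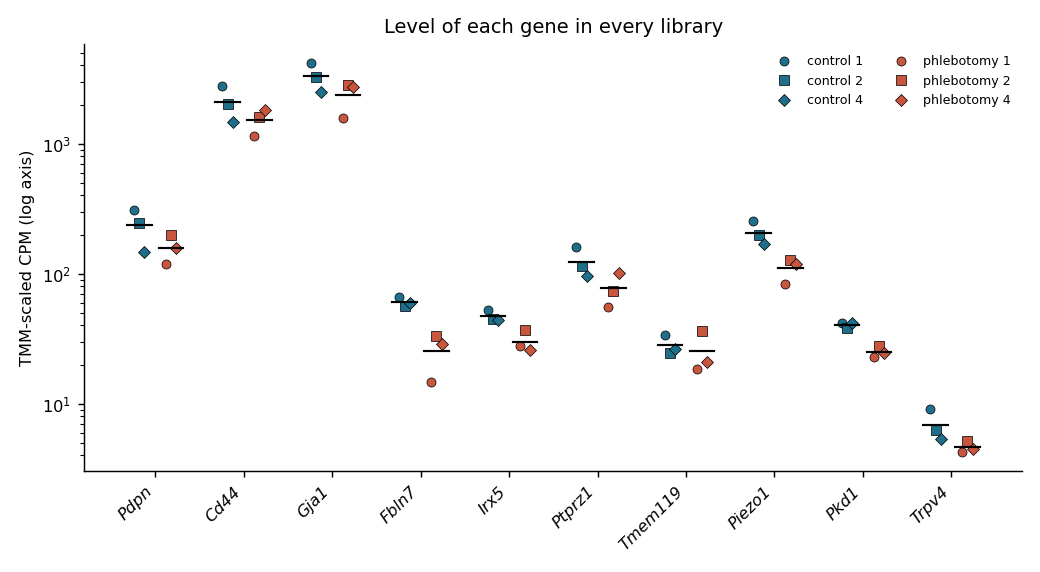
TMM-scaled CPM on a log axis for the 10 genes in every library, by group, with 1 point a library and a bar at each group mean (n = 3). Fbln7, Irx5, Piezo1, Pkd1 and Trpv4 show no overlap between groups, and Tmem119 is highest in phlebotomy 2 at 36.4 CPM.

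Piezo1, Pkd1 and Trpv4 are the mechanosensors. Piezo1 encodes a channel that opens on membrane stretch and that bone cells need for the response to load. Controls reached 255, 197 and 168 CPM, and phlebotomy libraries 83.4, 128 and 119.6 CPM. Every phlebotomy library lay below every control. The means were 207 ± 44.3 and 110.3 ± 23.6 CPM (SD, n = 3), and the log2 fold change was -0.90 ± 0.20 (SE; 95% interval -1.34 to -0.47; edgeR unadjusted p 0.000504, adjusted p 0.139). The gene lies on chromosome 8 from 122481698 to 122551329 (GRCm38, protein-coding, 51 exons in its longest transcript).

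Pkd1 encodes polycystin-1, a large receptor-like protein that works with the channel polycystin-2 and takes part in load sensing of bone cells. Its controls were the closest to each other of the 10 genes relative to their mean, at 41.6, 38.0 and 41.5 CPM. The phlebotomy libraries held 22.9, 27.9 and 24.5 CPM, all below the controls. The means were 40.4 ± 2.06 and 25.1 ± 2.55 CPM (SD, n = 3), and the log2 fold change was -0.68 ± 0.17 (SE; 95% interval -1.05 to -0.32; edgeR unadjusted p 0.00128, adjusted p 0.148). It lies on chromosome 17 from 24549834 to 24596508 (GRCm38, protein-coding, 46 exons in its longest transcript).

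Trpv4, a calcium channel that responds to cell swelling and fluid flow, had the lowest level of the 10, with 71 to 114 counts a library. Controls stood at 9.07, 6.23 and 5.31 CPM and phlebotomy libraries at 4.25, 5.15 and 4.49 CPM. The groups came close without overlap. The log2 fold change was -0.56 ± 0.26 (SE; 95% interval -1.12 to 0.01; edgeR adjusted p 0.310).

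No source used here states whether reads were counted by strand. Without that, reads within exon bases that genes share on opposite strands cannot be assigned to a single gene. Piezo1 shares 2441 of its 9935 exon bases (24.6%) with Ctu2, a tRNA thiolation gene on the other strand. Ctu2 itself stood at 17.7 to 26.0 CPM, with a log2 fold change of -0.28 (edgeR unadjusted p 0.151). Pkd1 shares 693 of 17415 exon bases (3.98%) with Tsc2 on the other strand, which stood at 18.6 to 33.9 CPM with a log2 fold change of -0.37 (edgeR unadjusted p 0.121).

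Upstream sequence is shown for Fbln7, Piezo1 and Pkd1, the genes with the smallest p of the 10. Whether these sequences bear on the levels was not tested. RefSeq windows (GRCm38.p6, 250 bases before to 50 after a start site) matched 8 of the 10 genes, without Irx5 and Tmem119. The lines give bases before the start site that lie in no annotated exon, read in the direction of the gene. They are chr2:128863682-128863931 (plus strand) for Fbln7, inside the span of the annotated gene, chr8:122551330-122551579 (minus strand) for Piezo1, and chr17:24549700-24549833 (plus strand) for Pkd1, which ends 116 bases before the RefSeq start site. Capitals mark matches to the searched motifs.
Fbln7: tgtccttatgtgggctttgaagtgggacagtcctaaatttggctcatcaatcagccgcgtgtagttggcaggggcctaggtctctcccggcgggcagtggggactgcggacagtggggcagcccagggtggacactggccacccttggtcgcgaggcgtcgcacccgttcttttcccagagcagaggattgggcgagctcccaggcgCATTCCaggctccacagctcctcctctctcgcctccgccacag
Piezo1: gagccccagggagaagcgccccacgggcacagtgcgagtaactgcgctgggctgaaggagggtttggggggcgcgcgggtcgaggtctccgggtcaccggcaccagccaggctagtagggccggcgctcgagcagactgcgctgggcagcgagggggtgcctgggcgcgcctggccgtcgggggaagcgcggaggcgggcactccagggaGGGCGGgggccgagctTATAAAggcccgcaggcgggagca
Pkd1: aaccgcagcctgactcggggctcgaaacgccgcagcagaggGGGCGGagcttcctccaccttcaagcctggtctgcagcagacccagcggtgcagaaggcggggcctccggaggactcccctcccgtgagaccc

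The motif in capitals is CATTCC for Fbln7, GGGCGG followed by TATAAA for Piezo1, and GGGCGG for Pkd1, and no match overlaps another in these lines. Motifs were counted over the whole windows on both strands. GGGCGG, bound by SP and KLF factors, was found in 6 of the 8 genes (Cd44, Pdpn, Piezo1, Pkd1, Ptprz1 and Trpv4) and in 35.7% of all 32851 windows. The TEAD motif CATTCC was found in Fbln7 alone of the 8 and in 14.7% of windows. The AP-1 motif TGANTCA was in Gja1 and 7.81% of windows, the E-box CACGTG in Pdpn and 7.15%, and the TATA box TATAAA in Piezo1 and 13.6%. Neither the RUNX motif ACCACA nor the cAMP response element TGACGTCA was in any of the 8, against 16.8% and 1.79% of windows. GC content of the 250 upstream bases ran from 43.2% to 74.0% in the 8 genes with a median of 65.2%, against a median of 52.4% over all windows.

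Levels of different genes were compared as CPM per kilobase of merged exons. Control levels were 321 ± 81.0 for Gja1, 308 ± 96.2 for Cd44 and 129 ± 45.1 for Pdpn, and the other 7 genes stood at 20.8 ± 4.46 (Piezo1) or below (SD, n = 3). Next came Fbln7 at 18.7 ± 1.505, Irx5 at 15.2 ± 1.49, Tmem119 at 12.1 ± 2.06, Ptprz1 at 8.69 ± 2.38, Pkd1 at 2.32 ± 0.118 and Trpv4 at 1.69 ± 0.481. Among neighbours in this order, the control libraries overlapped between Gja1 and Cd44, Piezo1 and Fbln7, Irx5 and Tmem119, Tmem119 and Ptprz1, and Pkd1 and Trpv4, and the other neighbours lay apart. After phlebotomy the mean of Fbln7, at 7.91 ± 2.96 CPM per kilobase, lay below those of Irx5 and Tmem119 with either length, and its libraries overlapped with those of both genes. Parts of this order depend on the length used. Per kilobase of its longest transcript (3889 bases, against 10257 of merged exons) Gja1 stood at 847 ± 214 in control, apart from Cd44 at 372 ± 116. Ptprz1 then ranked above Tmem119. With that length the controls of Fbln7 (mean 18.7) and Irx5 (mean 18.6) overlapped, and those of Piezo1 and Fbln7 lay apart.

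**Figure D2:**
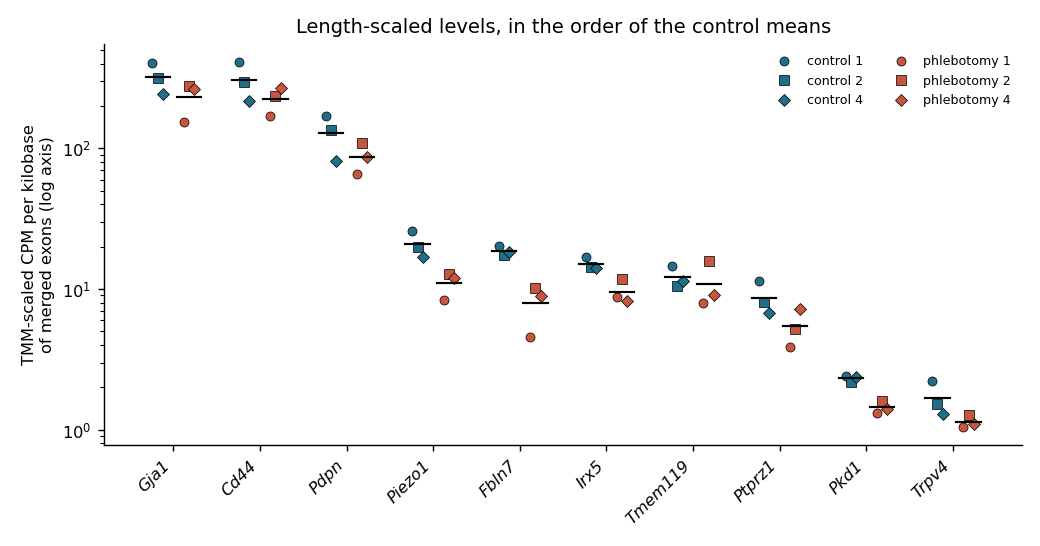
TMM-scaled CPM per kilobase of merged exons on a log axis, genes in the order of their control means, with 1 point a library by group and a bar at each group mean (n = 3). Control means span from 321 (Gja1) to 1.69 (Trpv4) CPM per kilobase.

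The 10 genes shared an order of libraries. Control 1 held the highest level for 9 of the 10, against 25.2% of all genes, and phlebotomy 1 the lowest for 9 of the 10, against 23.7%. Both held for 8 of the 10, against 12.3%. The exceptions were Tmem119, highest in phlebotomy 2, and Irx5, lowest in phlebotomy 4. Centred on each gene's mean on the log2 scale, the 10 genes averaged 0.63, 0.27 and 0.07 over the controls and -0.68, -0.06 and -0.23 over the phlebotomy libraries.

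Marker sums of osteocytes, osteoblasts, periosteal cells and chondrocytes were likewise highest in control 1 and lowest in phlebotomy 1, and those of most marrow cells were not. The 5 osteocyte markers summed to 48051, 44765 and 22247 CPM in controls and 13470 (phlebotomy 1), 24453 and 24385 CPM after phlebotomy. Of these markers 4 were lower at an unadjusted p under 0.05, against 9.42% of all genes. The 7 osteoblast markers, all with a fold change below 0 and 3 lower at that p, summed to 21105 to 31355 CPM in control and 7030 to 20400 after phlebotomy. Periosteal and fibroblast markers (5 of 5 below 0, 3 at that p) summed to 2219 to 3219 and 1325 to 2005 CPM, so that these and the osteoblast sums lay apart between groups. Most of each osteoblast sum was Col1a1, at 18056 to 26398 CPM in controls and 4995 to 16539 CPM after phlebotomy. Most of each osteocyte sum was Dmp1. Taken singly, 2 of the 7 osteoblast and 2 of the 5 periosteal markers lay apart and lower, against 11.2% of all genes. Erythroid markers were lowest in control 1 at 2505 CPM, against 4342 to 6307 in the other libraries, and neutrophil markers too, at 13000.2 CPM against 18748 to 33814. Sums of T and NK cell markers lay apart and higher, at 44.2 to 79.0 and 80.8 to 97.5 CPM, although 4 of the 5 genes had a fold change below 0. The part of these cells in the values of the 10 genes was not tested, and in bulk RNA fewer cells of a type and less RNA per cell cannot be told apart.

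Markers of other cells that express single members were read in the same way. Lymphatic endothelium expresses Pdpn, and its markers summed to 22.7 to 27.8 CPM in control and 13.3 to 22.2 after phlebotomy, apart and lower. Most of each sum was Flt4, at 20.6, 22.5 and 25.6 CPM in controls and 11.1, 21.3 and 13.0 CPM after phlebotomy. The groups overlapped for Flt4. Prox1 stood at 0.586 to 1.91 CPM and Lyve1 at 0.197 to 1.41 CPM, with log2 fold changes of -0.36 and -0.06. Ccl21a had 0 counts in all libraries. The part of these cells in the Pdpn values was not tested. Schwann and glial markers, from cells that express Ptprz1, summed to 27.7 to 33.7 and 30.8 to 33.4 CPM, with Sox10 at or under 0.328 CPM. Macrophage markers, from cells that express Cd44 and Piezo1, summed to 322 to 374 and 308 to 507 CPM, and endothelial markers to 393 to 486 and 399 to 462 CPM. The glial, macrophage and endothelial sums overlapped between groups, as did those for chondrocyte (269.9 to 845 and 226 to 475 CPM), marrow stromal (886 to 1109.9 and 821 to 1015) and smooth muscle markers (271 to 547 and 239.9 to 306). The same held for osteoclast (788 to 1503 and 752 to 2542), B cell (158 to 219 and 127 to 178), platelet (556 to 1231 and 657 to 1016) and skeletal muscle markers (3.63 to 6.01 and 5.02 to 7.19).

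Set against osteocyte matrix markers of the same library, 0 of the 10 genes lay apart and lower, and almost none of all genes tested did. For each library the log2 level of a gene was taken minus the mean log2 level of Dmp1, Mepe and Phex, a mean that itself differed by -0.79 between phlebotomy and control. On that scale 0 of the 10 lay apart and lower, against 0.00531% of all genes, and 1 lay apart and higher, against 29.3%. The difference was above 0 for 8 of the 10, against 97.5% of all genes. The gene apart and higher was Cd44, at -0.84, -0.90 and -0.76 in controls and -0.42, -0.41 and -0.61 in phlebotomy libraries. Fbln7 had the lowest difference, -0.53, with controls at -6.24, -6.07 and -5.39 and phlebotomy libraries at -6.69, -6.00 and -6.58, which overlap. Piezo1 differed by -0.12, Irx5 by 0.12, Pkd1 and Ptprz1 by 0.10 each, and Pdpn, Trpv4, Gja1, Cd44 and Tmem119 by 0.25 to 0.58.

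The choice of markers changed which genes lay apart. With Sost and Fgf23 added to the reference, Fbln7 (-0.78) and Piezo1 (-0.37) lay apart and lower, 2 of 10 against 0.441% of all genes, and 0 lay apart and higher, against 44.3%. Against the 7 osteoblast markers Fbln7 lay apart and lower (-0.69), 1 of 10 against 0.223%, and Tmem119 apart and higher (0.42), 1 of 10 against 18.6%.

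**Figure D3:**
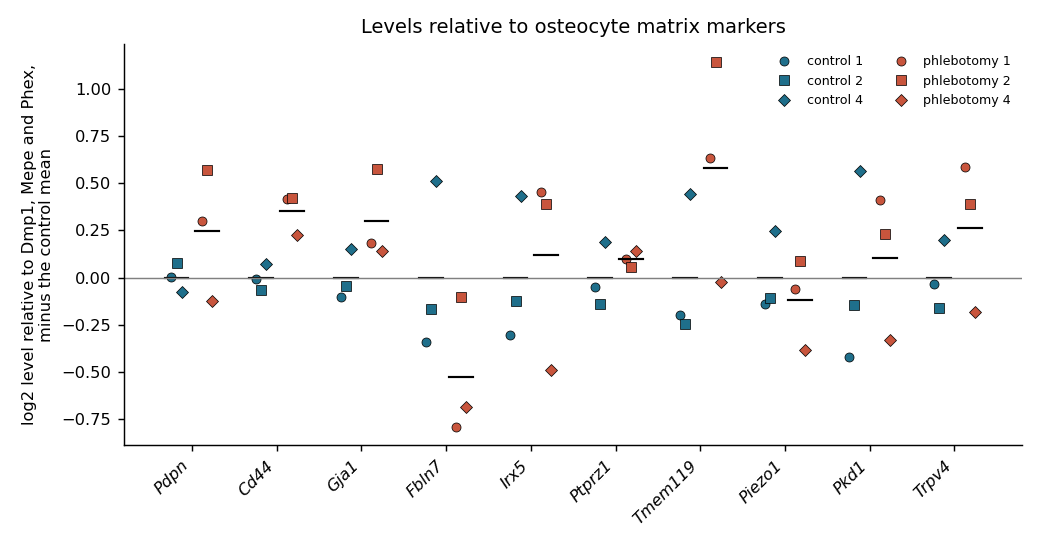
Log2 level of each gene relative to the mean of Dmp1, Mepe and Phex in the same library, minus the control mean, with 1 point a library by group and a bar at each group mean (n = 3). Cd44 shows no overlap, with phlebotomy above control, and Fbln7 has the most negative difference between group means, -0.53.

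Single libraries moved the values. Without phlebotomy 2, edgeR called Fbln7 (-1.51), Irx5 (-0.87), Piezo1 (-1.06) and Pkd1 (-0.81) lower, 4 of 10 against 2.99% of all genes, with adjusted p of 0.0159, 0.0320, 0.0320 and 0.0358. Taking an unadjusted p under 0.05, 9 of 10 were then lower, against 14.5%, and 6 of 10 lay apart, against 22.6%. Without control 1 the log2 fold changes of Pdpn, Cd44, Gja1, Trpv4 and Tmem119 were -0.33, -0.21, -0.28, -0.33 and -0.02. Without phlebotomy 1 those of Pdpn, Cd44 and Gja1 were -0.37, -0.26 and -0.22, and that of Fbln7 was -0.94.

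Fold changes of all genes ran with transcript length and GC content (Spearman's rho -0.246 and -0.230 across 18822 genes of the same 6 libraries), and 7 of the 10 genes are longer than the median transcript of 2912 bases. With the trend on length and GC removed in each library, the log2 fold change was -0.58 for Piezo1, -0.38 for Irx5, -0.33 for Trpv4, -0.47 for Pkd1 and -0.02 for Tmem119. It was -1.20 for Fbln7, -0.63 for Ptprz1, -0.67 for Pdpn, -0.50 for Gja1 and -0.40 for Cd44, near the values above. In that fit 6 of 10 were lower at an unadjusted p under 0.05, against 7.64%, and 5 of 10 lay apart, against 9.99%. Without phlebotomy 2 and with the trend removed, a setting chosen after seeing the data, Fbln7 alone was called lower (-1.44; edgeR adjusted p 0.0381), 1 of 10 against 0.108% of all genes.

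**Figure D4:**
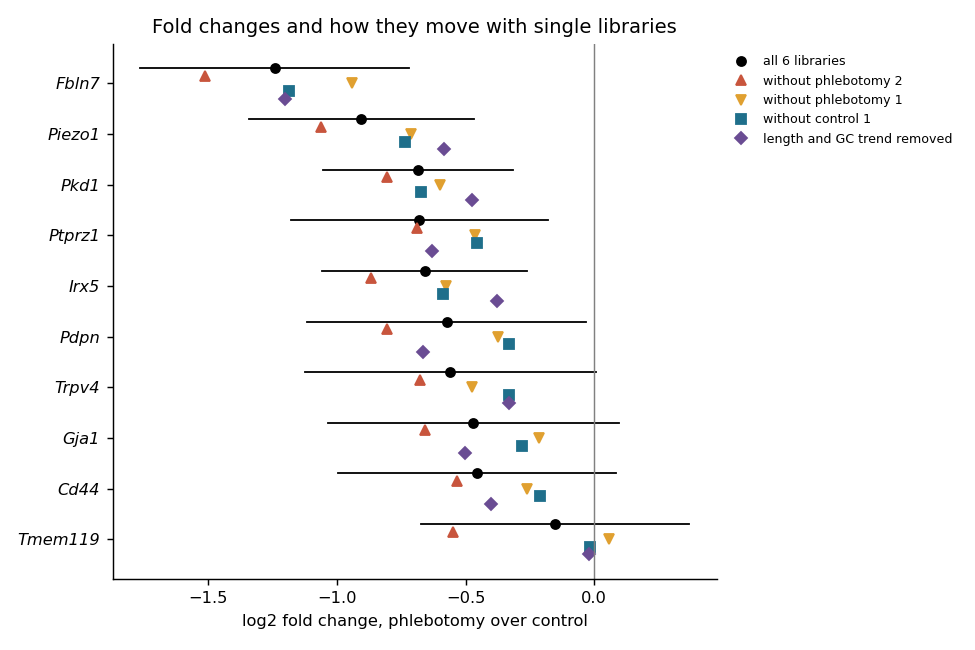
Log2 fold change of phlebotomy over control for each gene, with the value and 95% interval over all 6 libraries and points for other settings. Fbln7 has the lowest value at -1.24, and the intervals of Cd44, Gja1, Trpv4 and Tmem119 include 0.

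Genes that work with the 10 were read from 8 lists that name 111 genes, of which 85 were tested. None of them passed over all genes in edgeR with all 6 libraries. Of all genes tested there, 9.42% were lower and 7.01% higher at an unadjusted p under 0.05. The share lower at that p was 14.5% without phlebotomy 2 and 7.64% with the length and GC trend removed. Of 15 partners of the dendrite membrane and cytoskeleton, 12 had a fold change below 0, with a median of -0.38, and at an unadjusted p under 0.05 there were 5 lower and 0 higher. Tln1 (talin, which links integrins to actin) had a log2 fold change of -0.75, Mmp14 (a membrane protease needed for canaliculi) -0.64 and Itga5 (a chain of the fibronectin receptor) -0.50, each with groups apart. Ezr (ezrin, which ties podoplanin and CD44 to actin) had -0.39 with groups that overlapped. Mmp14 and Tln1 were called lower by DESeq2, and Fscn1 and Tln1 by edgeR when phlebotomy 2 was left out. With the length and GC trend removed the median was -0.23.

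Of 12 genes for hyaluronan and for ligands of CD44 and PTPRZ1, 10 were tested, with a median of -0.40. At an unadjusted p under 0.05 there were 3 lower and 1 higher. Tnc (tenascin-C) had a log2 fold change of -0.65, Has1 (a hyaluronan synthase) -0.63 and Mdk (midkine) -0.54, each with groups apart, and 1 gene of the list lay apart and higher. Hmmr, a hyaluronan-binding spindle protein of dividing cells, had 0.57. Leaving out phlebotomy 2 gave 4 lower and 4 higher at that p of 11 tested, with Has1 called lower. In that fit edgeR called 356 of all genes higher and 607 lower, against 3 and 0 with all libraries. The share of all genes higher at an unadjusted p was not computed there.

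Of 23 connexin, pannexin and junction genes besides Gja1, 9 were tested, with a median of -0.24, 1 lower and 0 higher at an unadjusted p under 0.05. Tjp1 (ZO-1, a scaffold that binds connexin 43) had a log2 fold change of -0.46 with groups apart (edgeR unadjusted p 0.0242). Gjc1 (connexin 45) had -0.40 with groups apart, Gja5 0.52 with groups apart and higher, and Gja3 -0.52 with overlap. Of 5 other Iroquois genes 3 were tested. Irx3, the neighbour of Irx5 in its gene cluster, reached 95.9, 93.2 and 69.2 CPM in controls and 55.6, 70.0 and 48.4 CPM in phlebotomy libraries, so that phlebotomy 2 lay just above control 4. Its log2 fold change was -0.57 (edgeR unadjusted p 0.00896), and edgeR called Irx3 lower when phlebotomy 2 was left out. Irx6 and Irx2 had -0.81 and 0.55 at group means of 2.20 CPM or less.

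Other channels did not share 1 direction. Of 17 tested mechanosensitive channels and polycystins, 9 had a fold change below 0 and 8 above, with a median of -0.08 that was 0.08 with the length and GC trend removed and 0.12 in DESeq2 over all 25 named. At an unadjusted p under 0.05 there were 4 lower and 0 higher. These were P2ry2 (an ATP receptor of bone cells) at -0.64, Cacna2d1 (a calcium channel subunit) at -0.64, Tmem63b (an osmosensitive channel) at -0.68 and Pkd2 (polycystin-2, the partner of polycystin-1) at -0.41. Piezo2, the relative of Piezo1, stood at 3.88 CPM on average in control and 5.85 after phlebotomy, with groups apart. Its log2 fold change was 0.60, and the adjusted p from edgeR 0.346. For the primary cilium, the organelle in which polycystins sit, 9 of 9 genes were tested, 0 had an unadjusted p under 0.05, and the median was 0.04. The smallest p there belonged to Ift140 (0.33), Arl13b (-0.24), Adcy6 (-0.31) and Bbs4 (0.31), given as log2 fold changes.

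Of 12 genes of the YAP and TAZ pathway, which relays stiffness and stretch to the nucleus, 10 had a fold change below 0, with a median of -0.46, and at an unadjusted p under 0.05 there were 6 lower and 0 higher. Amotl2, a target and brake of YAP, reached 422, 339.9 and 273 CPM in controls and 138, 225 and 171 CPM in phlebotomy libraries, which all lay lower. Its log2 fold change was -0.95 (edgeR unadjusted p 0.000462). Ccn1 and Ccn2, secreted matrix proteins and YAP targets, had -0.72 and -0.62, and Lats2, a kinase that holds YAP back, -0.53, each with groups apart. Ccn1, Ccn2 and Amotl2 were called lower by DESeq2, and Amotl2 by edgeR when phlebotomy 2 was left out. With the trend removed the median was -0.36, with 7 lower at that p.

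Of 10 outputs of loading (prostaglandin, nitric oxide and anabolic genes), 7 had a fold change below 0, with a median of -0.18, and there were 3 lower and 0 higher at an unadjusted p under 0.05. Wnt1, an anabolic ligand, reached 64.0, 68.4 and 45.6 CPM in controls and 25.8, 42.5 and 27.4 CPM in phlebotomy libraries, which lay lower. Its log2 fold change was -0.90 (edgeR unadjusted p 0.00105), and both DESeq2 and edgeR without phlebotomy 2 called it lower. Ptger4 (a prostaglandin receptor) had -0.45 with groups apart, Ptgs2 (the inducible prostaglandin synthase) -0.60 with groups that overlapped, and Nos1 0.96 at 0.635 CPM on average in control.

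**Figure D5:**
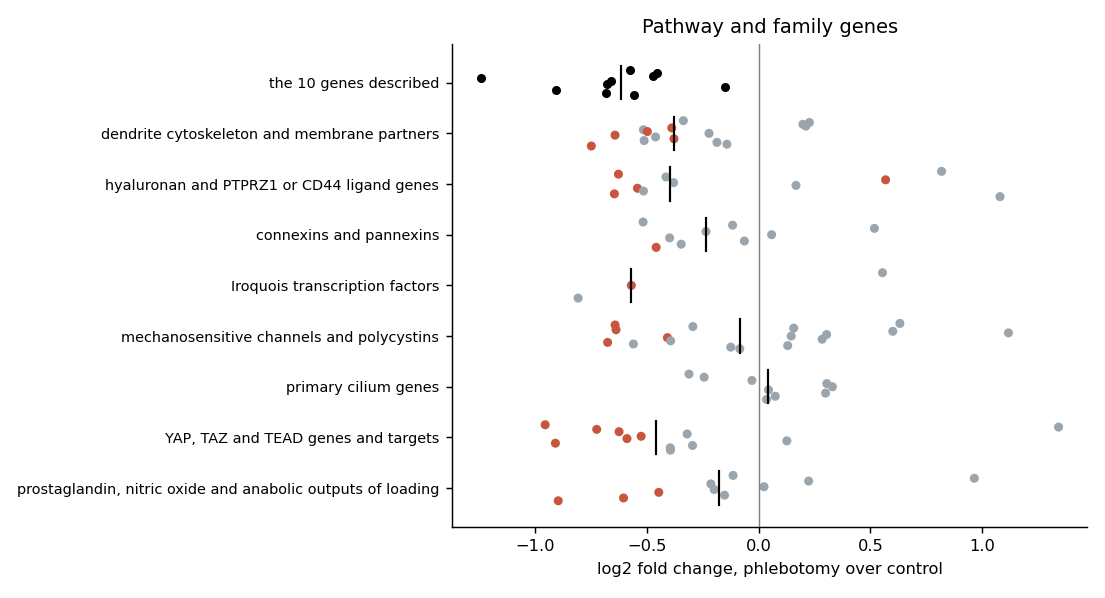
Log2 fold change of phlebotomy over control for the 10 genes and for the tested genes of 8 lists, with red for an unadjusted p under 0.05 and a bar at each median. The medians run from -0.62 for the 10 genes to 0.04 for primary cilium genes.

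Genes whose profile over the 6 libraries lay closest were looked up among 10577 others with at least 5 CPM on average, by the root mean square difference of centred log2 levels. Closest to Piezo1 were Gpc4 (0.0481) and Mrc2 (0.0497), a glypican and a collagen receptor, and closest to Pkd1 were Phrf1 (0.0377) and Man2b2 (0.0468). Closest to Fbln7 were Angptl2 (0.130) and Cd22 (0.138), at a larger distance than the neighbours of Piezo1 and Pkd1.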

How the data were processed

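The authors deposited raw gene counts, a copy with low rows removed, and a signal table that its file name calls CPM scaled with TMM. Per the labels' protocols, Nextera XT libraries were sequenced as 126 bp pairs on a HiSeq1500. STAR (2.7.3a and 2.5.2a), DESeq2, edgeR and limma, and as builds GRCm38.p3 and mm10, appear in the submitters' processing notes with no role. How reads were counted, and whether by strand, is not given in the sources used here.

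Rows naming no mouse gene (0.00278% to 0.0284% of counts) were left out. Counts were filtered with filterByExpr (minimum count 10), scaled with TMM and tested with edgeR 4.0.16 (quasi-likelihood, robust; R 4.3.3) over all 6 libraries, with Benjamini-Hochberg adjustment at 0.05; SEs were approximated from F. These p measure only the spread among the libraries, which may be technical. Libraries of a group differed by more than sampling noise (chi-square per degree of freedom 25.2 to 61.5). The code was tested on simulated data with 100 genes changed 2-fold and 100 changed 4-fold. It recovered 74% and 99% of them at an adjusted p under 0.05, and 27 of its 200 calls were false.

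Gene positions, lengths and GC content came from GENCODE M21 (GRCm38; 99.7% of gene IDs), promoters from RefSeq. The 10 genes and the 25 lists were chosen with earlier results of these data known. Named besides the 10 are the 4 genes of smallest p in each pathway list, the 2 nearest profiles for the 3 genes of smallest p, and Erfe; Fscn1 and Piezo2 were chosen after their values were seen. Alternatives were RLE and upper-quartile scaling, no filter, the authors' filtered genes, DESeq2 1.42.0, limma 3.58.1 (voom, and trend on the deposited signal with pseudocounts of 0.5 and 1), no robust option, a length and GC trend, a block on the number, and each library left out.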

Additional observations from a re-analysis of the deposited data

Results flagged for a closer look

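A signal appeared in rows that the comparisons do not use. The 19 rows of the count table that name transgene or vector sequences held 0.0284% of the counts of phlebotomy 2 (4288 counts), against 380 to 640 counts in each other library, and 2 of these rows had counts in phlebotomy 2 alone. Phlebotomy 2 is also the library without which edgeR called 4 of the 10 genes lower, against 2.99% of all genes. A link between these rows and those calls was not tested. Groups of 3 are too small for a test of single outlying libraries.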

How the results depend on the processing

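Each of the 10 genes kept a negative log2 fold change in every alternative except Tmem119, which was at 0.058 without phlebotomy 1 and ranged from -0.55 to 0.058 with a library left out. The median over the 10 then ranged from -0.75 to -0.39. Over all genes edgeR called 3 higher and 0 lower. These counts were 166 and 411 with no filter on low counts, 6 and 14 on the genes the authors kept, 64 and 289 in DESeq2, and 42 and 22 without phlebotomy 2 and with the length and GC trend removed. Of the 10 genes, those settings called 4, 1, 4 and 1 lower. limma-voom called 0 genes, with 5 of the 10 lower at an unadjusted p under 0.05, against 9.58% of all genes. With a library left out, 0 to 356 genes were called higher and 0 to 607 lower, 0 to 4 of the 10 were called lower, and 5 to 9 lay apart, against 12.1% to 22.6% of all genes. The upper ends came without phlebotomy 2 (356, 607 and 4) and without control 4 (9, against 20.4% of all genes), and without phlebotomy 1 edgeR called 0 genes, with 4 of the 10 lower at an unadjusted p under 0.05, against 4.14% of all genes. Relative to Dmp1, Mepe and Phex, 0 to 1 of the 10 lay apart and lower with a library left out (1 without phlebotomy 2, against 0.441% of all genes), and 1 to 5 apart and higher (5 without phlebotomy 4, against 68.2%). Against 5 osteocyte markers 2 were lower and 0 higher, and against osteoblast markers 1 was lower. The cause of these shifts was not tested.

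Deviations of same-numbered libraries from their group means correlated at -0.110, -0.108 and -0.0616, and those of differently numbered libraries at -0.0240 to 0.106. With so few libraries these values cannot decide whether equal numbers mark pairs. With the number as a replicate block edgeR called 3 genes and 0 of the 10, with a median of -0.60 for the 10, and with the block and the trend removed 1 gene higher. Depth limits Trpv4 most, at 71 to 114 counts a library.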
